A study of Bos taurus with 6 samples.

Results

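Skeletal muscle that burns fuel in its mitochondria forms superoxide and hydrogen peroxide, and a set of enzymes removes them. Superoxide dismutases turn superoxide into hydrogen peroxide, which catalase splits into water and oxygen. Glutathione peroxidases and peroxiredoxins reduce it to water with electrons that come mainly from glutathione and thioredoxin. Glutathione transferases couple glutathione to reactive lipids and other compounds, and the transcription factor NRF2, encoded by NFE2L2 and held back by KEAP1, raises many of these genes under oxidative stress. The genes described here are 40 antioxidant and glutathione genes listed by name for their function. A member counts as measured where the platform annotation pairs a non-control probe set with that 1 gene symbol, and of several probe sets the one with the highest average over the 6 arrays stands for the gene. Of the 40, 36 were measured, with 47 probe sets, out of 9155 genes measured in this way. GPX8, GSTA1, GSTP1 and GLRX had no such probe set.

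Expression was measured on arrays in longissimus thoracis muscle, a large back muscle, of 6 castrated males of the Japanese Black cattle breed. The vitamin A restricted group held 3 steers aged 589 to 611 days, and the vitamin A supplemented group held 3 steers aged 600 to 618 days. Per the labels, the supplemented steers received 296.8 IU of vitamin A per kg of body weight by mouth once a week, and in the restricted group this supplement was restricted, with no amount stated. All 6 entered fattening at an age of 13 to 14 months. They were fattened for 7 months, to an age of 20 to 21 months, on feed for a gain of 1.0 kg a day. The 6 stated ages all differ, so each array is taken as 1 animal. All 7 measured muscle fibre markers, among them ACTA1, CKM and MYH1, had values above those of 99.6% of the probe sets, while 0 of 6 liver markers lay above the 90th percentile. The 3 liver markers with the smallest p, CYP2E1, APOB and TTR, differed by less than 1 SD. Of these muscle markers 2 had higher means in restricted steers and 5 lower ones, with MYH1 at -3.46 SDs (limma unadjusted p = 0.00836), MB at -0.842 SDs and ACTA1 at -0.497 SDs, where an SD is that within the diets. Endothelial markers were higher in 5 of 7, led by CLDN5, CDH5 and TEK at 1.06 to 1.37 SDs, and fibroblast markers in 2 of 7, with PDGFRA, FN1 and DCN at -1.23 to -0.545 SDs. None of these lists held a gene past the adjusted threshold.

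The deposited log2 values hardly differ between arrays, and the step that made them so is not given in the sources used here. Differences are therefore not read as fold changes. They are given in millionths of a deposited log2 unit, as the deviation of a steer from the mean of the 6 steers for the same probe set, and in standard deviations within the diets (SDs) of that probe set. The range over the 6 steers had a median of 13.2 millionths over the 36 genes, against 1.23 millionths over all 9155 genes. The range was under 1 millionth in 7 of the 36 genes and in 46.1% of all genes, and over 100 millionths in 6 of the 36 and in 5.16% of all genes. Array medians spread over 8.88 millionths, and those of restricted steers lay on average 2.22 millionths above those of supplemented steers. The difference between the diets was smaller than this offset in 18 of the 36 genes, so for those genes the sign can depend on whether each array is moved to a common median. In bulk muscle, fewer cells of a type and less RNA per cell cannot be told apart.

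**Figure D1:**
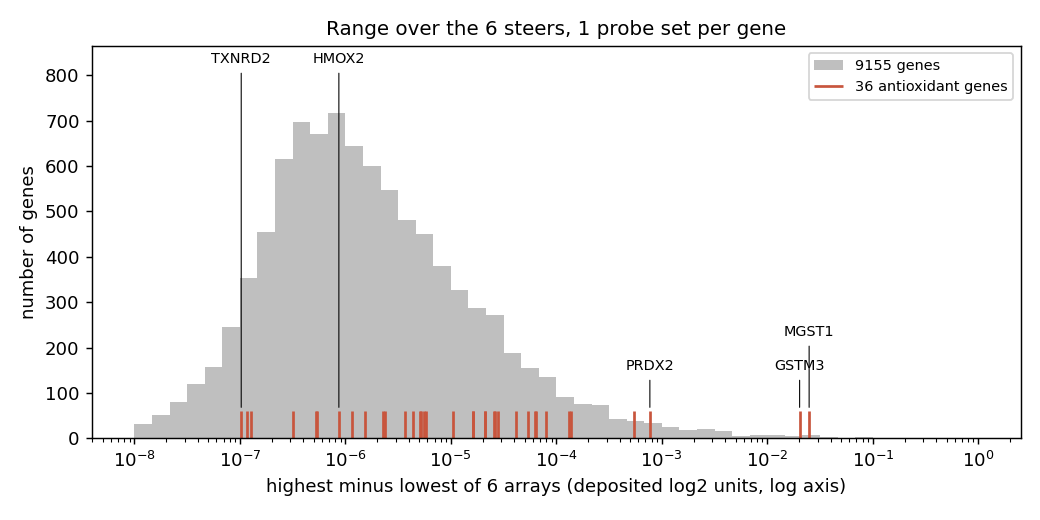
Range over the 6 steers (highest minus lowest array, in deposited log2 units on a log axis) for all 9155 genes as grey bars and for the 36 antioxidant genes as red ticks. MGST1 and GSTM3 lie at the far right, above 0.01, and TXNRD2 has the narrowest range of the 36, at 0.103 millionths.

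The comparison of restricted with supplemented steers asks which antioxidant genes differ in muscle when the vitamin A supplement is restricted. None of the 36 passed the limma test adjusted over all probe sets, whose threshold was 0.05 and which 0.00416% of probe sets passed. Every adjusted p of the 36 rounded to 1.00. At an unadjusted limma p under 0.05 there were 4, the haem oxygenase HMOX2, the transferase MGST2 and the peroxiredoxin PRDX3 on the higher side and the selenium enzyme SEPHS2 on the lower side. These are 11.1% of the 36, where 4.62% of all genes reached that p. The diets did not overlap in 5 genes, the 4 just named and the glutathione reductase GSR. Of the 36, 3 were higher without overlap and 2 lower, against 4.15% and 4.59% of all genes.

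Means were higher in restricted steers in 15 of the 36 genes and lower in 21, where 49.5% of all genes had a higher mean. The median difference was -0.103 SDs over the 36 genes and -0.00786 SDs over all genes. With each array moved to a common median (arrays shifted), 10 of the 36 (27.8%) were higher and 26 lower, where 10.8% of all genes were higher and 89.2% lower. The median was then -0.532 SDs beside -0.737 SDs over all genes. The shift lowers every difference by the offset of 2.22 millionths, so a gene with a smaller range can only come out lower. Ranges under 1 millionth were found in 46.1% of all genes but in only 7 of the 36. The shares and medians after the shift thus depend on range and are not read as a result about the 36. Quantile normalization left 21 of the 36 with values that differ between arrays, 8 higher, 9 lower and the rest equal between the diets. It made 15456 probe sets equal on all arrays. A difference of 0.816 SDs, in either direction, is the size given by a single array apart from equal others. Its sign then rests on that array alone. As deposited, the difference was over 1 SD in size in 17 of the 36 genes and in 26.0% of all genes.

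**Figure D2:**
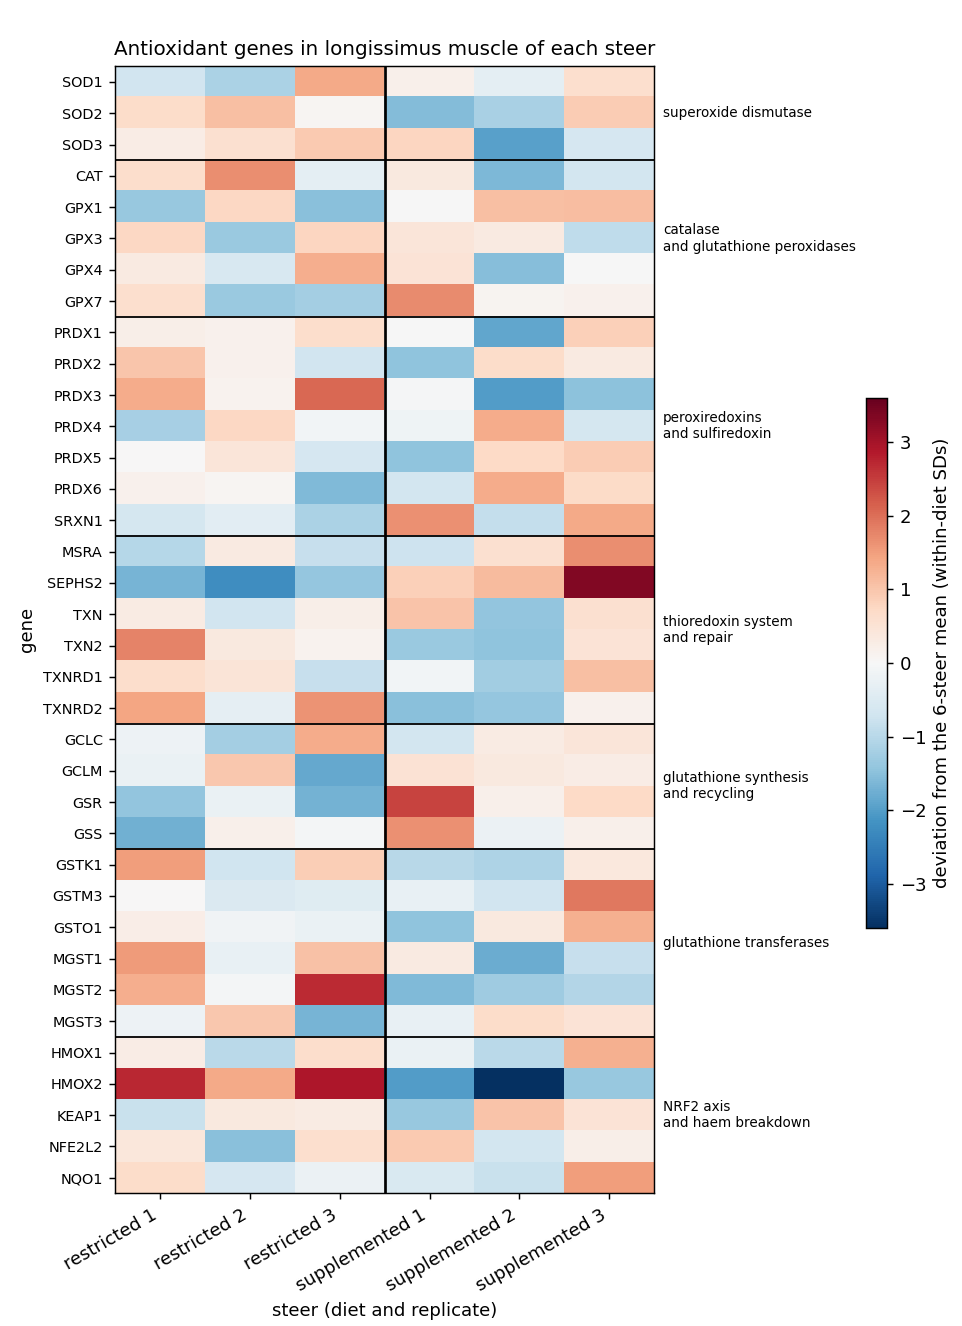
Deviation of each steer from the 6-steer mean, in within-diet SDs of the gene's probe set, for the 36 measured genes (rows, grouped by role) in restricted steers (left) and supplemented steers (right). The rows of HMOX2 and SEPHS2 separate the diets most clearly, and most other rows mix both colours within each diet.

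The superoxide dismutases were of 3 kinds in location and none passed the test. SOD1, the cytosolic enzyme, lay at -4.49, -7.29 and 8.80 millionths in restricted steers 1, 2 and 3, against 1.23, -2.20 and 3.95 in supplemented steers. Restricted steers held both the lowest and the highest value, and the difference of -0.308 SDs had a limma unadjusted p of 0.708. SOD2, the mitochondrial manganese enzyme, lay at 1.29, 2.16 and 0.165 millionths in restricted steers, against -3.08, -2.32 and 1.79 in supplemented steers. All restricted steers lay above the 6-steer mean, but so did supplemented steer 3. The difference of SOD2 was 1.21 SDs (limma unadjusted p = 0.183), 0.0392 SDs with the arrays shifted and -0.816 SDs with quantile normalization. When any 1 steer was left out it was 0.786 to 4.47 SDs (limma unadjusted p = 0.00900 to 0.413). The larger was that without supplemented steer 3, the steer that overlapped. SOD3, the extracellular enzyme, differed by 1.19 SDs, or -0.530 SDs with the arrays shifted, and its 2 probe sets ran in opposite directions.

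Catalase and the glutathione peroxidases split in direction, 3 higher and 2 lower, or 2 higher and 3 lower with the arrays shifted and 1 higher and 3 lower with quantile normalization. CAT, the peroxisomal catalase, lay at 3.96, 10.6 and -2.24 millionths in restricted steers, against 2.19, -10.4 and -4.16 in supplemented steers. Supplemented steer 1 lay above restricted steer 3, and the difference was 1.29 SDs (limma unadjusted p = 0.161). GPX1, the main cytosolic glutathione peroxidase and a selenoprotein, lay at -72.0, 38.7 and -79.6 millionths in restricted steers, against -1.12, 56.5 and 57.7 in supplemented steers. Restricted steers 1 and 3 were the lowest of all, while restricted steer 2 lay above supplemented steer 1. The difference of GPX1 was -1.43 SDs (limma unadjusted p = 0.129). When any 1 steer was left out it was -4.11 to -1.03 SDs (limma unadjusted p = 0.0117 to 0.301). The larger was that without restricted steer 2, the steer that overlapped.

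GPX4, the selenoprotein that reduces lipid peroxides within membranes, lay at 15.0, -27.7 and 61.0 millionths in restricted steers, against 23.6, -71.6 and -0.279 in supplemented steers. Its ranges overlap across most of their length, and the difference of 0.685 SDs (limma unadjusted p = 0.420) turned to -0.816 SDs with quantile normalization. GPX7, a peroxidase of the endoplasmic reticulum, differed by -1.30 SDs, and by -3.01 SDs with age in the model (limma unadjusted p = 0.0380), but turned to 0.816 SDs with quantile normalization. GPX3, the secreted plasma enzyme, differed by 0.113 SDs, on a probe set whose level exceeded that of 11.7% of the probe sets.

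Among the peroxiredoxins, thiol enzymes that reduce peroxides, PRDX3 of the mitochondria was the 1 gene whose diets did not overlap. It lay at 1.45, 0.126 and 2.22 millionths in restricted steers, against -0.0447, -2.16 and -1.59 in supplemented steers. Restricted steer 2 and supplemented steer 1, at the edges of the gap, were 0.171 millionths apart. The difference was 2.53 ± 0.831 millionths (SE, n = 3 each) or 2.35 SDs, with a limma 95% interval of 0.294 to 4.40 SDs and an unadjusted p of 0.0330. With the arrays shifted it was 0.114 SDs (limma unadjusted p = 0.898), and the second probe set of PRDX3 differed by -0.194 SDs.

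PRDX2, a cytosolic peroxiredoxin that is also abundant in red blood cells, had the widest range of this family, 770 millionths, and differed by 0.312 SDs. It lay at 315, 44.6 and -213 millionths in restricted steers, against -455, 206 and 102 in supplemented steers, so that both diets spanned most of the range. Red blood cell markers had mean deviations of -1.03 to 0.462 SDs in restricted steers and -0.398 to 0.680 SDs in supplemented steers, and 3 of the 6 measured were higher. The 3 with the smallest p were ALAS2 at -2.02 SDs, AHSP at -1.26 SDs and SLC4A1 at 0.933 SDs. PRDX1, PRDX4, PRDX5 and PRDX6 differed by -0.910 SDs, in PRDX6, to 0.669 SDs, in PRDX1. PRDX6, which also acts on phospholipids, has 4 probe sets, of which 1 was higher and 3 lower. SRXN1, the sulfiredoxin that repairs overoxidized peroxiredoxins and a known NRF2 target, differed by -1.42 SDs. It lay at -0.513, -0.310 and -0.925 millionths in restricted steers, against 1.34, -0.698 and 1.11 in supplemented steers. Supplemented steer 2 lay among the restricted steers, and the other two supplemented steers lay well above them. When any 1 steer was left out, the difference of SRXN1 was -6.62 to -1.01 SDs (limma unadjusted p = 0.00259 to 0.309). The larger was that without supplemented steer 2, the steer that overlapped.

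The thioredoxin system carries electrons from NADPH to peroxiredoxins and to repair enzymes. TXN, the cytosolic thioredoxin, lay at 2.62, -5.86 and 1.73 millionths in restricted steers, against 8.88, -12.3 and 4.93 in supplemented steers. The restricted values lay inside the supplemented range, with a difference of -0.117 SDs. TXNRD1, the cytosolic thioredoxin reductase and a selenoprotein, lay at 1.53, 1.11 and -1.98 millionths in restricted steers, against -0.248, -2.96 and 2.55 in supplemented steers. Here too the supplemented range encloses the restricted one, and the difference was 0.186 SDs, or -0.404 SDs with the arrays shifted. The mitochondrial pair had larger differences in SDs. TXN2, the mitochondrial thioredoxin, lay at 3.24, 0.644 and 0.214 millionths in restricted steers, against -2.40, -2.60 and 0.903 in supplemented steers. Only supplemented steer 3 reached into the restricted range, and the difference was 1.51 SDs (limma unadjusted p = 0.114), or 0.134 SDs with the arrays shifted. TXNRD2, the mitochondrial reductase, differed by 1.81 SDs, within a range of 0.103 millionths, and by -0.726 SDs with that shift.

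A look at location was added after these values were seen. The 4 members described above as mitochondrial, SOD2, PRDX3, TXN2 and TXNRD2, all had higher means in restricted steers, by 1.21 to 2.35 SDs as deposited. This group does not hold every member with a mitochondrial form. With the arrays shifted these 4 ran from -0.726 to 0.134 SDs, with TXNRD2 lower. Quantile normalization turned SOD2 to -0.816 SDs and TXNRD2 to -0.577 SDs, and left no differing values for PRDX3 and TXN2. PRDX5, which is found in mitochondria, peroxisomes and cytosol, was left out of the group and differed by -0.104 SDs as deposited. GSTK1, of mitochondria and peroxisomes, was also left out and differed by 1.14 SDs.

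SEPHS2, selenophosphate synthetase, makes the selenium donor for selenocysteine and is itself a selenoprotein. It lay at -16.5, -21.9 and -13.7 millionths in restricted steers, against 8.51, 11.1 and 32.5 in supplemented steers. All 3 restricted steers lay below the 6-steer mean and all 3 supplemented steers above it, with a gap of 22.2 millionths between the diets. The difference was -34.8 ± 7.54 millionths (SE, n = 3 each) or -3.55 SDs, with a limma 95% interval of -5.61 to -1.50 SDs, an unadjusted p of 0.00759 and an adjusted p of 1.00. It was -3.11 SDs with the arrays shifted (limma unadjusted p = 0.00541). It was -7.63 to -3.00 SDs when any 1 steer was left out, the larger without supplemented steer 3. With quantile normalization it was 0.816 SDs (limma unadjusted p = 0.345), the size given by a single array apart from equal others. Of the 6 selenoproteins measured, which also include GPX1, GPX3, GPX4, TXNRD1 and TXNRD2, 4 were higher and 2 lower as deposited. With the arrays shifted 1 was higher and 5 lower, where 89.2% of all genes were lower. MSRA, which repairs oxidized methionine, had a lower mean in restricted steers (limma unadjusted p = 0.257).

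**Figure D3:**
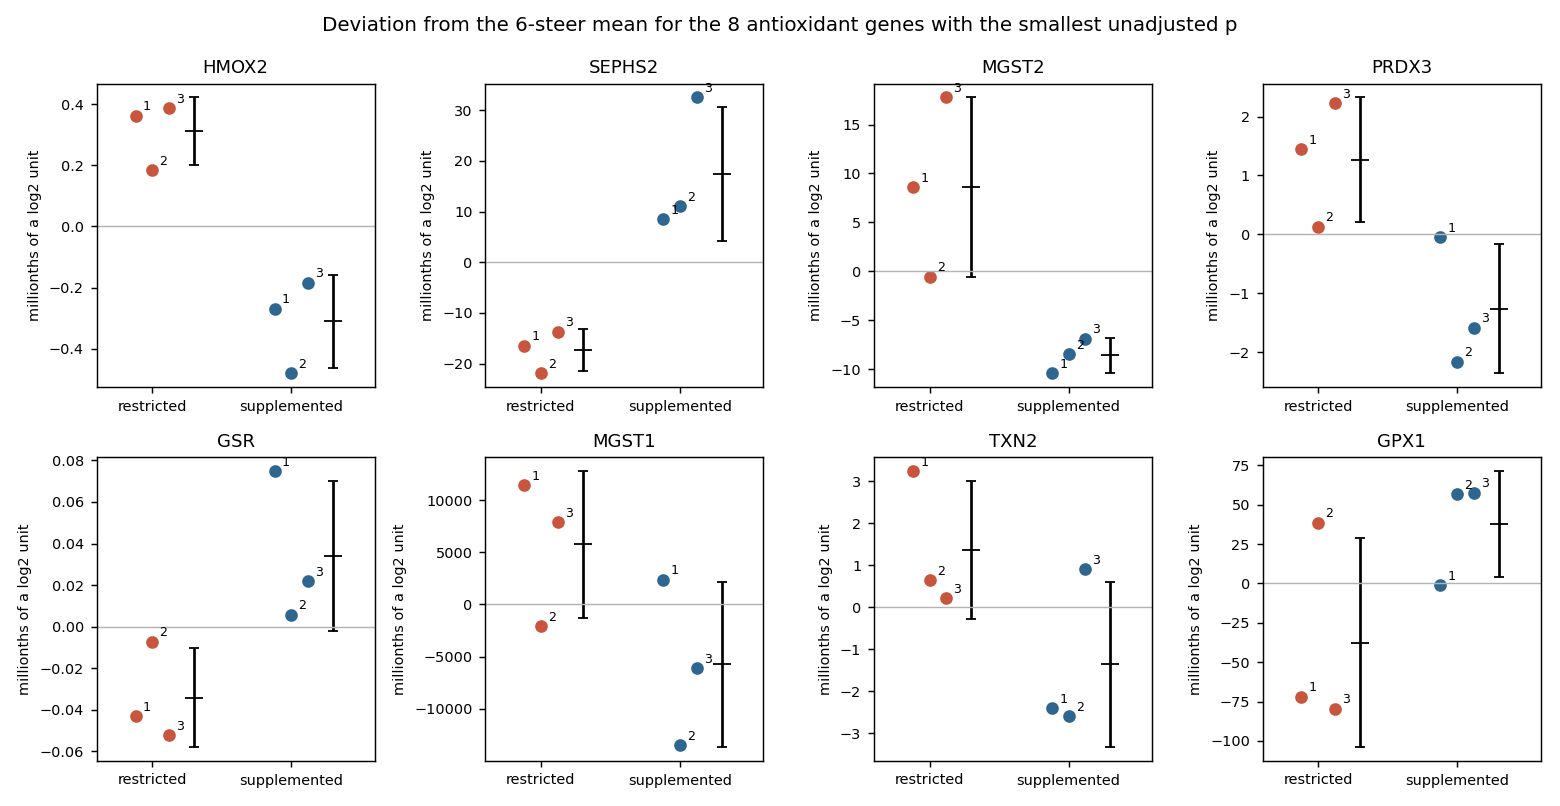
Deviation from the 6-steer mean (millionths of a deposited log2 unit) in restricted (red) and supplemented (blue) steers for the 8 antioxidant genes with the smallest unadjusted limma p, with steer numbers beside the points and mean ± SD as black bars. The vertical scales differ, as deviations stay under 0.1 millionths in size in GSR and reach -13465 in MGST1. Only HMOX2, SEPHS2, MGST2, PRDX3 and GSR have no overlap.

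The 4 enzymes that make and recycle glutathione all had lower means in restricted steers as deposited. With the arrays shifted they were lower too, as were 89.2% of all genes. Their ranges, 0.118 to 1.165 millionths, are smaller than the offset of 2.22 millionths between the diets' array medians. After the shift they could therefore only come out lower. Quantile normalization turned GCLM to 0.816 SDs, made GSR equal and left no differing values for GCLC and GSS. GSR, which regenerates reduced glutathione from its oxidized form, lay at -0.0432, -0.00717 and -0.0522 millionths in restricted steers, against 0.0748, 0.00583 and 0.0218 in supplemented steers. Restricted steer 2 and supplemented steer 2 were 0.0130 millionths apart. The difference of -2.23 SDs had a limma unadjusted p of 0.107, and GSR has a range of 0.127 millionths. GCLC, the catalytic subunit of the first enzyme of glutathione synthesis, lay at -0.00817, -0.0562 and 0.0618 millionths in restricted steers, against -0.0312, 0.0138 and 0.0198 in supplemented steers. The restricted steers enclosed the supplemented ones, and the difference was -0.0360 SDs, on a probe set whose level exceeded that of 7.21% of the probe sets. It turned to 1.28 SDs with age as a covariate and to 0.170 SDs with array weights, and kept its sign in 2 of the 6 fits that left out 1 steer. GCLM, the regulatory subunit, lay at -0.0985, 0.403 and -0.762 millionths in restricted steers, against 0.210, 0.142 and 0.105 in supplemented steers. Its within-diet SD was 0.584 millionths in restricted steers and 0.0533 in supplemented steers, and the difference was -0.737 SDs (limma unadjusted p = 0.389). GSS, glutathione synthetase, differed by -1.08 SDs.

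The glutathione transferases held both the widest ranges of the 36 genes and 1 gene without overlap. MGST2, a membrane-bound transferase that can also make leukotriene C4, lay at 8.60, -0.541 and 17.8 millionths in restricted steers, against -10.4, -8.50 and -6.90 in supplemented steers. The supplemented steers lay close together, with an SD of 1.77 millionths beside 9.16 in restricted steers, and below every restricted steer. The difference was 17.2 ± 5.09 millionths (SE, n = 3 each) or 2.61 SDs, with a limma 95% interval of 0.558 to 4.66 SDs and an unadjusted p of 0.0232. It was 2.11 SDs with the arrays shifted (limma unadjusted p = 0.0288), 2.17 to 5.43 SDs when any 1 steer was left out, and 0 with quantile normalization. MGST3 and the cytosolic GSTO1 differed by -0.589 and -0.104 SDs. GSTK1, a transferase of mitochondria and peroxisomes, differed by 1.14 SDs, and all 3 of its probe sets were higher, by 0.966 to 1.57 SDs.

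MGST1 and GSTM3 ranged over 24907 and 20239 millionths, the 12th and 16th widest of the 9155 genes, and were the 2 members among 26 genes that ranged over more than 0.01 log2 units. MGST1, the microsomal transferase that also reduces lipid peroxides, lay at 11442, -2097 and 7901 millionths in restricted steers, against 2357, -13465 and -6137 in supplemented steers. Restricted steers 1 and 3 were highest and supplemented steers 2 and 3 lowest, but supplemented steer 1 lay above restricted steer 2. The difference was 11497 ± 5772 millionths (SE, n = 3 each) or 1.54 SDs, with a limma 95% interval of -0.517 to 3.59 SDs and an unadjusted p of 0.110. It kept its sign under each alternative setting tried.

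Adipocyte markers were read beside MGST1, because fat cells within the muscle also express it. FABP4, the fatty acid binding protein of fat cells, lay at 11214, -3559 and 5414 millionths in restricted steers, against 5354, -15117 and -3307 in supplemented steers. CIDEC, a lipid droplet protein, lay at 5518, -3394 and 2386 millionths in restricted steers, against 2184, -5830 and -865 in supplemented steers. In these 3 genes the highest value was that of restricted steer 1, followed by restricted steer 3 and supplemented steer 1, and the lowest that of supplemented steer 2. These 2 markers were picked after their values were seen, and the other 4 measured, ADIPOQ, PPARG, CFD and LEP, were lowest in supplemented steer 3. Of the 7 listed adipocyte markers 6 were measured, all 6 with a higher mean in restricted steers, and their mean deviation was 0.194 to 1.62 SDs in restricted steers and -1.60 to -0.176 SDs in supplemented steers. The 3 with the smallest p were CFD at 6.35 SDs (limma unadjusted p = 0.000717), ADIPOQ at 1.78 SDs and PPARG at 1.41 SDs. The part of fat cells in the values of MGST1 was not tested.

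GSTM3, a cytosolic mu class transferase, lay at 34.2, -4083 and -3324 millionths in restricted steers, against -2139, -5364 and 14876 in supplemented steers. Supplemented steer 3 alone stood far above the other 5 steers, and the sign of the difference depends on it. The difference of -0.627 SDs (limma unadjusted p = 0.458) became 0.582 SDs without supplemented steer 3.

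**Figure D4:**
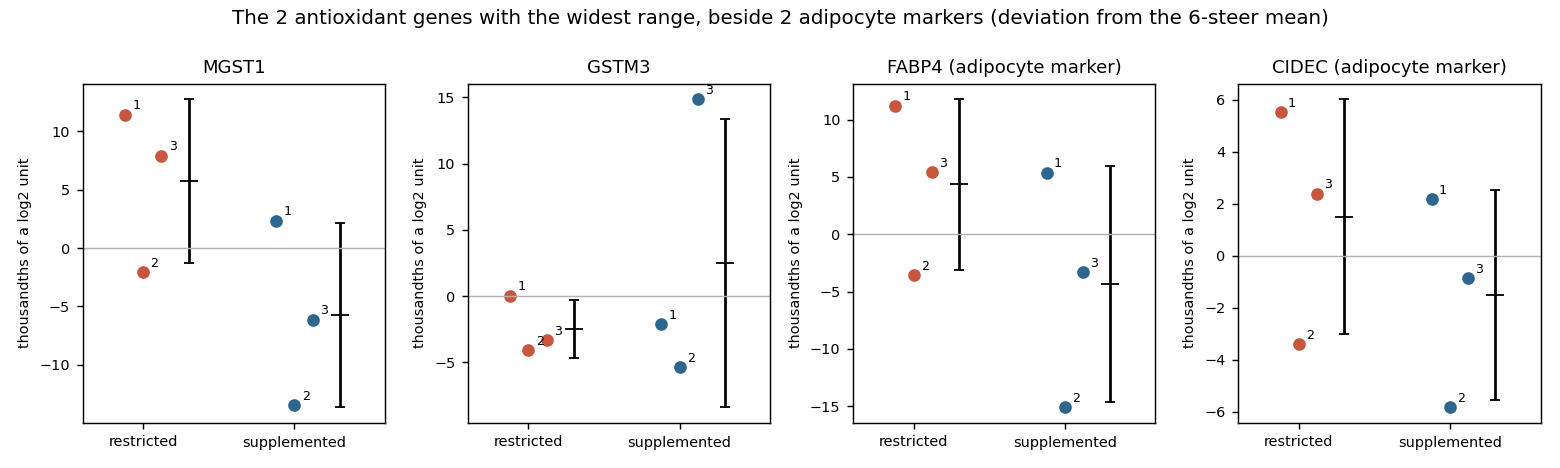
Deviation from the 6-steer mean, in thousandths of a deposited log2 unit, for MGST1 and GSTM3 and for the adipocyte markers FABP4 and CIDEC in restricted (red) and supplemented (blue) steers, with mean ± SD as black bars. MGST1 shares its 3 highest steers and its lowest steer with these 2 markers, picked after their values were seen, while the other 4 adipocyte markers are lowest in supplemented steer 3. GSTM3 is high in supplemented steer 3 alone.

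On the NRF2 axis, the regulators NFE2L2 and KEAP1 and the targets NQO1 and HMOX1 overlapped between the diets. NFE2L2 lay at 10.4, -39.2 and 15.4 millionths in restricted steers, against 24.7, -17.1 and 5.76 in supplemented steers. Its lowest steer was restricted steer 2 and its highest supplemented steer 1, with a difference of -0.343 SDs. KEAP1, the adaptor that sends NRF2 to degradation, lay at -5.39, 2.36 and 1.96 millionths in restricted steers, against -9.17, 6.88 and 3.36 in supplemented steers. The supplemented steers enclosed the restricted ones, and the difference was -0.106 SDs. KEAP1 has 3 probe sets, and the other two differed by 0.0675 and 0.650 SDs. In the last of them supplemented steer 1 was highest, at 6.55 millionths, and supplemented steer 3 lowest, at -12.2, so that its steers run against those of the probe set used.

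NQO1, a quinone reductase and NRF2 target, lay at 7.32, -6.61 and -2.40 millionths in restricted steers, against -5.98, -8.96 and 16.6 in supplemented steers. Supplemented steer 3 was again the highest, and the difference of -0.101 SDs became 1.16 SDs without it. HMOX1, the inducible haem oxygenase that is strongly expressed in macrophages, lay at 62.7, -235 and 153 millionths in restricted steers, against -55.1, -234 and 308 in supplemented steers. Each diet held 1 steer near the bottom and 1 near the top, and the difference was -0.0536 SDs (limma unadjusted p = 0.948). Macrophage markers had mean deviations of -0.965 to 0.0334 SDs in restricted steers and -0.466 to 1.05 SDs in supplemented steers, and 5 of the 7 measured were lower. The 3 with the smallest p, AIF1, MSR1 and C1QA, differed by -1.90, -1.54 and -0.994 SDs. The part of macrophages in the values of HMOX1 was not tested.

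HMOX2, the constitutive haem oxygenase, had the smallest unadjusted p of the 36 genes. It lay at 0.361, 0.183 and 0.388 millionths in restricted steers, against -0.269, -0.480 and -0.183 in supplemented steers. All restricted steers lay above the 6-steer mean and all supplemented steers below it. The difference was 0.622 ± 0.106 millionths (SE, n = 3 each) or 4.65 SDs, with a limma 95% interval of 2.54 to 6.76 SDs, an unadjusted p of 0.00293 and an adjusted p of 1.00. It was 3.97 to 5.53 SDs when any 1 steer was left out. The whole range of HMOX2, 0.868 millionths, is smaller than the 2.22 millionths between the diets' array medians, and with the arrays shifted the difference turned to -0.535 SDs (limma unadjusted p = 0.541). Its level exceeded that of 49.1% of the probe sets.

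**Figure D5:**
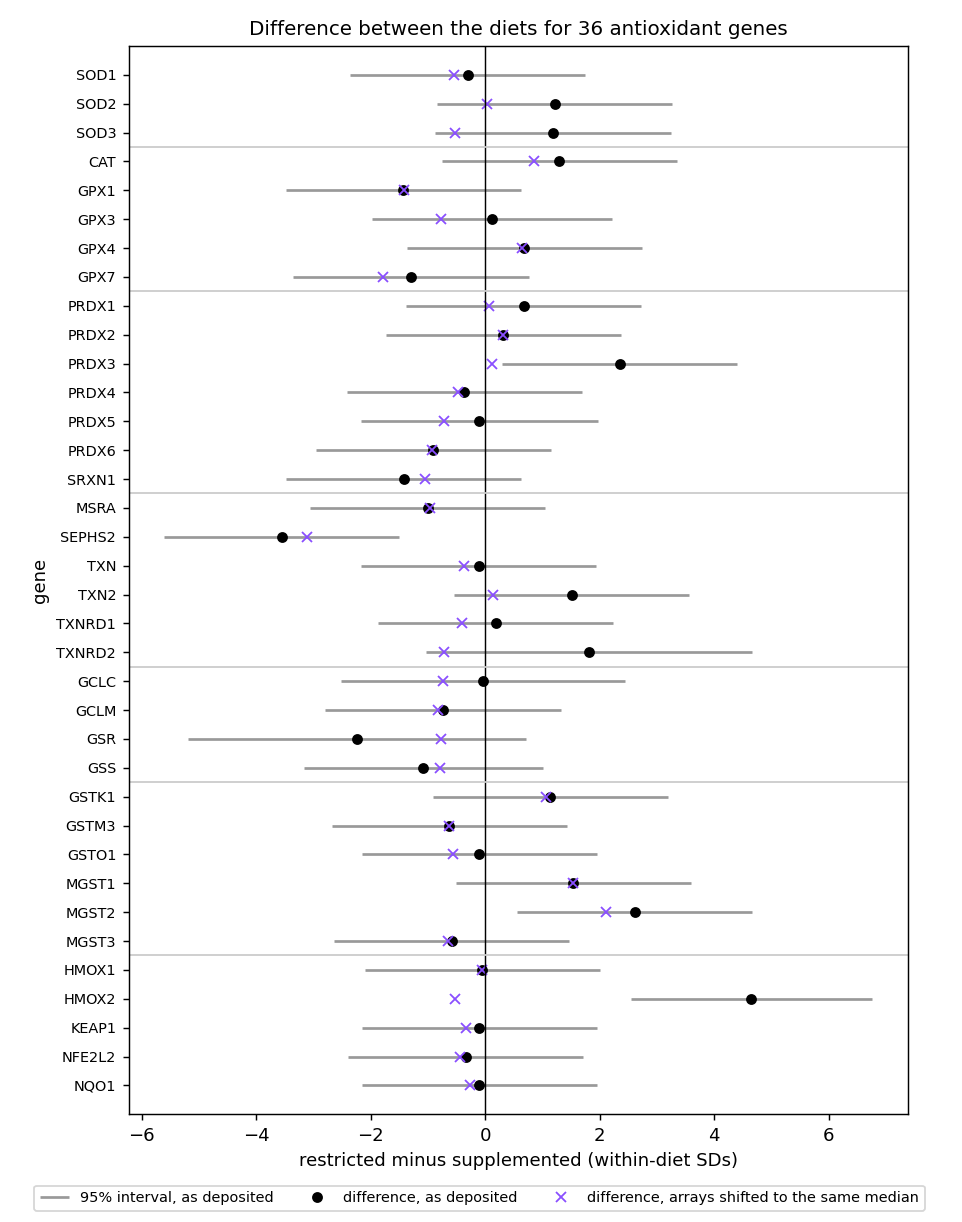
Difference between the diets, restricted minus supplemented in within-diet SDs, for each of the 36 genes (points) with its 95% limma interval (grey lines), and the same with the arrays shifted (crosses). The intervals of HMOX2, MGST2, PRDX3 and SEPHS2 lie off 0, without adjustment for the number of genes. After the shift PRDX3 lies at 0.114 SDs and HMOX2 turns to -0.535 SDs, while SEPHS2 and MGST2 stay at -3.11 and 2.11 SDs.

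Of the 36 genes, 7 have several probe sets, 18 in all, and in 3 of these genes, GPX1, NFE2L2 and GSTK1, all probe sets ran in 1 direction. By steer, supplemented steer 2 was the lowest of the 6 in 13 of the 36 genes and supplemented steer 3 in 0 of them, while over all 9155 genes they were lowest in 1499 and 1442. Supplemented steer 3 was the highest in 10 of the 36 and restricted steer 3 in 9, while over all 9155 genes they were highest in 1898 and 1384. Among the 71 related redox genes described below, supplemented steer 3 was the highest in 20 and the lowest in 2. The median deviation over the 36 genes was 0.259, -0.00663 and 0.00539 SDs in restricted steers, against -0.129, -0.671 and 0.497 SDs in supplemented steers. The lowest and the highest of these medians thus both belong to supplemented steers, and the restricted steers lie between them. Over all genes the highest median was also that of supplemented steer 3, at 0.0974 SDs, and the lowest that of supplemented steer 1, at -0.113 SDs.

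Genes near these in redox metabolism gave no call either. The list holds NADPH supply, other transferases, glutathione breakdown, selenoprotein synthesis, iron and haem handling and NRF2 partners, and 71 of its genes were measured. None passed the adjusted limma test, and at an unadjusted p under 0.05 there were 2, or 2.82%, both higher. Means were higher in 37 and lower in 34, with a median of 0.118 SDs. With the arrays shifted 16 (22.5%) were higher and 55 lower, beside the 10.8% of all genes that were then higher. These shares, too, depend on the range of each gene. PON2, a lactonase with antioxidant action, differed by 2.99 SDs (limma unadjusted p = 0.0234), and by -0.682 SDs with the arrays shifted. EEFSEC, the elongation factor that brings selenocysteine to the ribosome, differed by 2.11 SDs (limma unadjusted p = 0.0499), and by -0.636 SDs with that shift. Their differences, 0.167 millionths in PON2 and 0.291 in EEFSEC, are smaller than the offset of 2.22 millionths between the diets' array medians. With the shift no related gene was higher at an unadjusted limma p under 0.05. On the lower side there was 1 (1.41%, beside 1.40% of all genes in either direction), the selenoprotein SELENOK at -1.77 SDs (limma unadjusted p = 0.0466). SELENOS, a selenoprotein of the endoplasmic reticulum, differed by -1.79 SDs (limma unadjusted p = 0.0737), and by -1.59 SDs with the arrays shifted, with all restricted steers below all supplemented ones in both.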

How the data were processed

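Muscle RNA of 6 steers was hybridised to 1 array each, and the authors deposited a table of 24128 probe sets. Labelling with biotin started from 100 ng of RNA, per the labels' protocols. The deposited values are read as log2 because they run from 4.81 to 12.8. How background, normalization and summarization were handled, and the base of the logarithm, was not given in the sources used here. Precision is limited by the number of arrays.

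Deposited values were used as they stand, without the 112 control probe sets. The 24016 others were multiplied by 1e+09, so that the last deposited decimal is 1, and fitted in R 4.3.3 with limma 3.58.1 (functions lmFit and eBayes, no trend). Differences are restricted minus supplemented, tests are two-sided, and p-values were adjusted by Benjamini-Hochberg over all 24016. There were 4 residual and 0.483 prior degrees of freedom. The fit was tested on simulated data. A difference in SDs is divided by the probe set's own residual SD, and lists got no test. A platform annotation table names 13292 of these probe sets with 1 gene, 86 with several and 10638 with none. The symbols of all 47 member probe sets were current in ARS-UCD2.0 gene records. No sequences or coordinates are given.

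The members and lists were chosen with earlier results of these data known. Values by steer are given for the 8 members with the smallest unadjusted p and for 15 members picked for their central role, and other members by their differences. In each list of related genes or markers, the 3 genes with the smallest p are named. FABP4, CIDEC, PRDX2 and SRXN1 were given by steer, and SOD2, PRDX3, TXN2 and TXNRD2 grouped as mitochondrial, after their values were seen. Replicate numbers were not taken to pair steers, because same-numbered steers of the diets correlated weakly over all probe sets, at 0.0151 to 0.0374. Differently numbered steers correlated lower still, at -0.0214 to 0.00610, and a replicate block was fitted as an alternative. Alternatives were a shift of the arrays, quantile normalization, a filter on low levels, averaging over each gene's probe sets, age as a covariate, a replicate block, a variance trend, array weights and leaving out each steer.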

Additional observations from a re-analysis of the deposited data

How the results depend on the processing

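None of the 36 antioxidant genes and none of the 71 related genes passed the adjusted limma threshold under any of the 14 alternatives tried, and leaving out any single steer gave 0 in each case. The count over all probe sets was 1, and 22 with quantile normalization, 0 with age as a covariate, 0 with the replicate block and 1 to 2 when a steer was left out. With the replicate block 15 of the 36 were higher, as without it, and 6 members rather than 4 had an unadjusted limma p under 0.05. These 6 are 16.7% of the 36, where 5.9% of all genes reached that p with the block. GPX7 and MGST1 were the members added, with a limma unadjusted p of 0.00170 and 0.00590. In the related genes that count was 5 (7.04%) with the block and 2 (2.82%) without it. With quantile normalization 15456 probe sets became equal on all arrays, which left 21 of the 36 and 40 of the related genes with differing values. Of these, 8 members (38.1%) and 16 related genes (40.0%) were higher, and 0 members lacked overlap, by construction over fewer genes. Of all genes left with differing values, 37.0% were higher and 0.576% lacked overlap. With each array moved to a common median 10 members and 16 related genes were higher, where 10.8% of all genes were. Overlap was then lacking in 3 members (8.33%) and in 2.06% of all genes. The median difference was then -0.532 SDs over the 36 and -0.737 SDs over all genes. These shares and medians depend on range, because a gene with a range below the offset of 2.22 millionths can only come out lower. Leaving out a steer gave 15 to 22 members and 30 to 42 related genes higher, where 47.9% to 51.8% of all genes were. Overlap was then lacking in 6 to 14 members (16.7% to 38.9%) and in 17.0% to 19.8% of all genes. Fewer steers make a lack of overlap more frequent. The median difference of the 36, -0.103 SDs, ran from -0.307 to 0.418 SDs when a steer was left out, the highest without supplemented steer 3. With age as a covariate 21 of the 36 were higher, and 52.5% of all genes. Of the 36 genes, 20 kept their sign whichever steer was left out, and 11 kept it or became equal under all alternatives that gave a value, among them MGST1, MGST2, PRDX3, GPX1 and GSR. The cause of these changes was not tested.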
